A study of Oryza sativa with 6 samples.

Results

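The homeobox genes of the HD-ZIP and KNOX families were followed in rice caryopses, the developing grains, of wild-type plants and of the mutant gif1. A gene was taken as a member where its symbol or a synonym in the RefSeq gene table was Hox, OsHox, OSH or HOS followed by a number, and where the array carried a probe set listed for that gene alone. The name rule met 37 genes, and 34 of them had such a probe set, out of 17905 genes with one on the array. Hox3, OSH10 and OSH15 met the rule by name and were not analysed here. The 34 genes divided into 25 HD-ZIP genes (12 of class I, 8 of class II and 5 of class III) and 9 KNOX genes (5 of class I and 4 of class II). Members were taken by name, but these families were chosen for study with earlier results of these data known. Classes follow published family lists and were not checked against protein sequence. HD-ZIP here means the genes that met the name rule, all of classes I to III, and not every gene of that family.

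Total RNA of whole caryopses taken 7 days after flowering was hybridized to 6 Affymetrix rice genome arrays. Of these, 3 carried RNA of wild-type Zhonghua11, a japonica cultivar, and 3 carried RNA of gif1, each said by the labels to be a biological replicate. The mutant is known for a lesion in GIF1 (GRAIN INCOMPLETE FILLING 1), a cell-wall invertase that cleaves sucrose on its way into the filling grain. The question addressed was which transcripts differed between mutant and wild-type grains during filling. No treatment is named for either group, and the labels do not give the number of plants or grains in a sample, so the p-values measure only the spread between these samples.

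Homeobox proteins bind DNA through a homeodomain and control which genes a cell uses. HD-ZIP proteins, which are found in plants, join that domain to a leucine zipper through which they pair. Class I is known for responses to drought and abscisic acid, class II for auxin and light responses and for repression, and class III for organ polarity and vascular patterning under the control of microRNAs. KNOX proteins of class I keep shoot meristem cells undifferentiated, partly by raising cytokinin and restraining gibberellin synthesis, whereas class II genes are expressed broadly in differentiating organs. A caryopsis holds embryo, starchy endosperm, aleurone and maternal pericarp together, and in such bulk samples fewer cells of a type and less RNA per cell cannot be told apart.

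GIF1 itself gave signals of 654.2, 428.6 and 607.7 in wild type, against 173.3, 100.9 and 190.4 in gif1. It was lower on every mutant array, with a log2 difference of -1.77 ± 0.28 (SE, n = 3 per genotype, limma adjusted p = 0.00254). Log2 differences here are those of gif1 relative to wild type on the log2(signal + 17.7) scale, which understates the change of dim probe sets. Median signals were 83.7 to 103.6 in wild type and 67.5 to 72.6 in gif1, while the trimmed mean was 500 on every array, and Spearman correlations between arrays were 0.841 to 0.867 within a genotype and 0.834 to 0.858 between genotypes. Poly-A control probe sets were 4.72-fold lower, ribosomal RNA probe sets 2.09-fold lower and hybridization controls 1.44-fold lower in gif1, each with no overlap (two-sided exact permutation test, p = 0.1 for each, the smallest that 3 against 3 arrays allow, adjusted p = 0.175 over 7 measures). These controls move with genotype, so results that turn on the scaling are also given with arrays scaled on the hybridization controls or centred on their medians. Tissue markers moved with genotype too. The summed signal of 12 starchy endosperm markers was 585501 to 738631 in wild type and 431578 to 490753 in gif1, and 7 of the 11 tested fell as deposited. That count rested on the scaling: after median centring and after control scaling 1 fell and 2 rose, after quantile normalization 1 fell and 0 rose (limma), and the median difference of -0.44 became -0.11, 0.09 and 0.02. The sum of 8 aleurone and embryo markers was 61886 to 99194 against 33936 to 35047, with 4 of 8 fallen under each of the 4 scalings (and 1 risen after median centring and control scaling), and that of 5 green pericarp markers was 74776 to 79974 against 93789 to 114891, with 4 of 5 risen under each. The remaining pericarp marker, CAB2R, was lower on all gif1 arrays as deposited and did not pass (-0.25, limma adjusted p = 0.106). Its difference was 0.085 after median centring, 0.279 after control scaling and 0.051 after quantile normalization. Over all 15423 genes tested, 5.63% passed as lower and 7.92% as higher in gif1 as deposited (limma). Median centring called 4156 of these genes higher and 280 lower, control scaling 6918 and 194, and quantile normalization 1084 and 798. No marker was at 0, and the part of tissue makeup and of array scaling in the results below was not tested.

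The homeobox genes that passed the test, 3 in all, moved in opposite directions. OSH1, the class I KNOX gene of the shoot meristem, was higher in gif1, and Hox19 of HD-ZIP class II and Hox9 of HD-ZIP class III were lower. Of the 34 genes, 29 had a mean signal of at least 74.1 and were tested, and the other 5 (Hox11, Hox17, Hox28, Hox29 and OSH3) were dimmer. The 3 calls are 10.3% of the 29 genes tested, 1 higher and 2 lower (limma, Benjamini-Hochberg adjusted p under 0.05 over 28597 probe sets). Over all 15423 genes tested, 13.6% passed, 7.92% as higher and 5.63% as lower in gif1, so the share among homeobox genes lay near that of the array. At an unadjusted p under 0.05 there were 9 of the 29 homeobox genes, beside 4651 of all 15423 genes tested. In 9 of the 29 genes (31.0%) the signals of the genotypes did not overlap, 5 higher and 4 lower, against 35.5% of all genes.

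**Figure D1:**
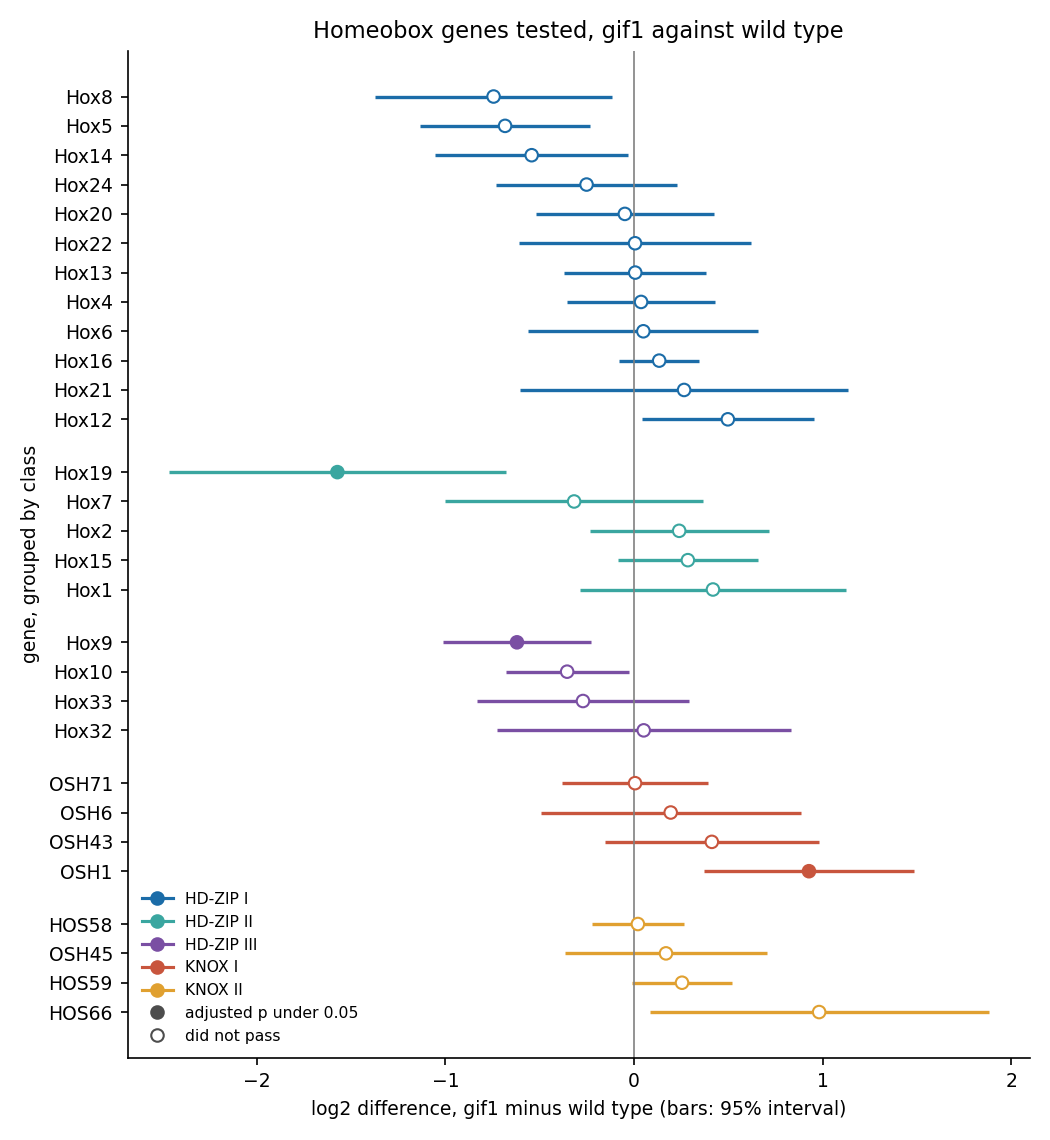
Log2 difference between gif1 and wild type (horizontal axis, with 95% intervals) for each of the 29 homeobox genes tested (vertical axis), coloured by class, with filled points for an adjusted p under 0.05. The 3 filled points are OSH1 at 0.93, Hox9 at -0.62 and Hox19 at -1.57. All 8 KNOX points lie at or above 0.005 in the deposited scaling, though 2 of them fall below 0 after quantile normalization.

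Among class I KNOX genes, OSH1 maintains the shoot apical meristem and marks the shoot region of the young embryo. Its signals were 761.4, 592.0 and 345.6 in wild type, against 1075.5, 860.1 and 1219.4 in gif1. Every mutant array was above every wild-type array, although wild-type replicate 3 was well below the other wild-type arrays. The mean rose from 566 ± 209 to 1052 ± 180.8 (SD, n = 3 per genotype), a log2 difference of 0.93 ± 0.26 (SE, 95% interval 0.37 to 1.49, adjusted p = 0.0371). The direction held without each array, but the call was kept only without wild-type replicate 1 (1.17, adjusted p = 0.00719). Without gif1 replicates 1, 2 and 3 the adjusted p was 0.117, 0.0574 and 0.141. Without wild-type replicates 2 and 3 it was 0.0696 and 0.0783, and the difference without replicate 3 was 0.62. Without an intensity trend in the fit it was 0.133. OSH1 was higher under every scaling tried, by 1.26 after median centring and 1.44 after scaling on the hybridization controls.

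OSH3 lies beside OSH1 on chromosome 3, with 1 gene between them in RefSeq order, and was singled out after its values were seen. Its probe set was too dim to be tested. It gave 37.3, 24.1 and 29.9 in wild type, against 62.5, 65.1 and 165.6 in gif1. The mutant arrays were all higher, and gif1 replicate 3 was far above the others. Fitted without the filter on dim probe sets, the difference was 1.16 (95% interval -0.14 to 2.46, adjusted p = 0.354).

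The other class I KNOX genes tested did not pass. OSH71, known also as Oskn2, gave 963.5, 1280.2 and 922.6 in wild type, against 1032.8, 1235.3 and 902.3 in gif1. The genotypes overlapped almost wholly, with a log2 difference of 0.005 ± 0.18 (SE, 95% interval -0.38 to 0.39) that turned to -0.05 after quantile normalization and -0.04 with array weights. OSH43 gave 164.6, 169.0 and 194.5 in wild type, against 261.1, 198.1 and 264.9 in gif1. All mutant values were above the wild-type values, by a margin that did not pass (0.41 ± 0.26, SE, adjusted p = 0.328) and passed after control scaling (0.90, adjusted p = 0.0297). OSH6 gave 142.3, 134.1 and 153.3 against 143.1, 227.6 and 139.9. Only gif1 replicate 2 stood above the wild-type arrays, and the adjusted p was 0.73.

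None of the 4 class II KNOX genes passed (limma), beside 13.6% of all genes tested. Of all 15423 genes tested 4651 had an unadjusted p under 0.05, and of these 4 KNOX genes 1 did. That gene was HOS66, with 93.8, 145.7 and 383.8 in wild type, against 438.7, 420.2 and 263.9 in gif1. Wild-type replicate 3 lay inside the mutant range, and the highest wild-type signal was 4.09 times the lowest. The difference of 0.98 ± 0.41 (SE, 95% interval 0.08 to 1.88) had an adjusted p of 0.144. It passed without wild-type replicate 3 (1.505, adjusted p = 0.015), after median centring (1.32, adjusted p = 0.029) and after scaling on the hybridization controls (1.47, adjusted p = 0.00488). It did not pass under the other alternatives, and without wild-type replicate 1 it was 0.58 (adjusted p = 0.312).

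HOS59, described in rice as a regulator of grain size, gave 2579.9, 2183.1 and 2299.8 in wild type, against 2725.5, 2771.1 and 2920.8 in gif1. All mutant arrays were higher, and the difference was small, at 0.25 ± 0.12 (SE, adjusted p = 0.192). It passed after median centring (0.59, adjusted p = 0.0111) and after scaling on the hybridization controls (0.78, adjusted p = 0.00259).

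HOS58 gave 3915.1, 4260.7 and 3867.3 in wild type, against 4198.9, 3809.7 and 4204.3 in gif1. The genotypes interleaved, and the highest signal was 1.10 times the lowest within each. Its difference of 0.02 ± 0.11 (SE) has a 95% interval of -0.22 to 0.26, and it was -0.02 after quantile normalization and 0.55 (adjusted p = 0.0196) after scaling on the hybridization controls. OSH45 gave 512.2, 676.0 and 317.2 in wild type, against 549.7, 547.2 and 528.5 in gif1. Its mutant arrays were nearly alike (542 ± 11.6, SD, n = 3) and lay inside the wild-type spread (502 ± 179.6, SD, n = 3).

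**Figure D2:**
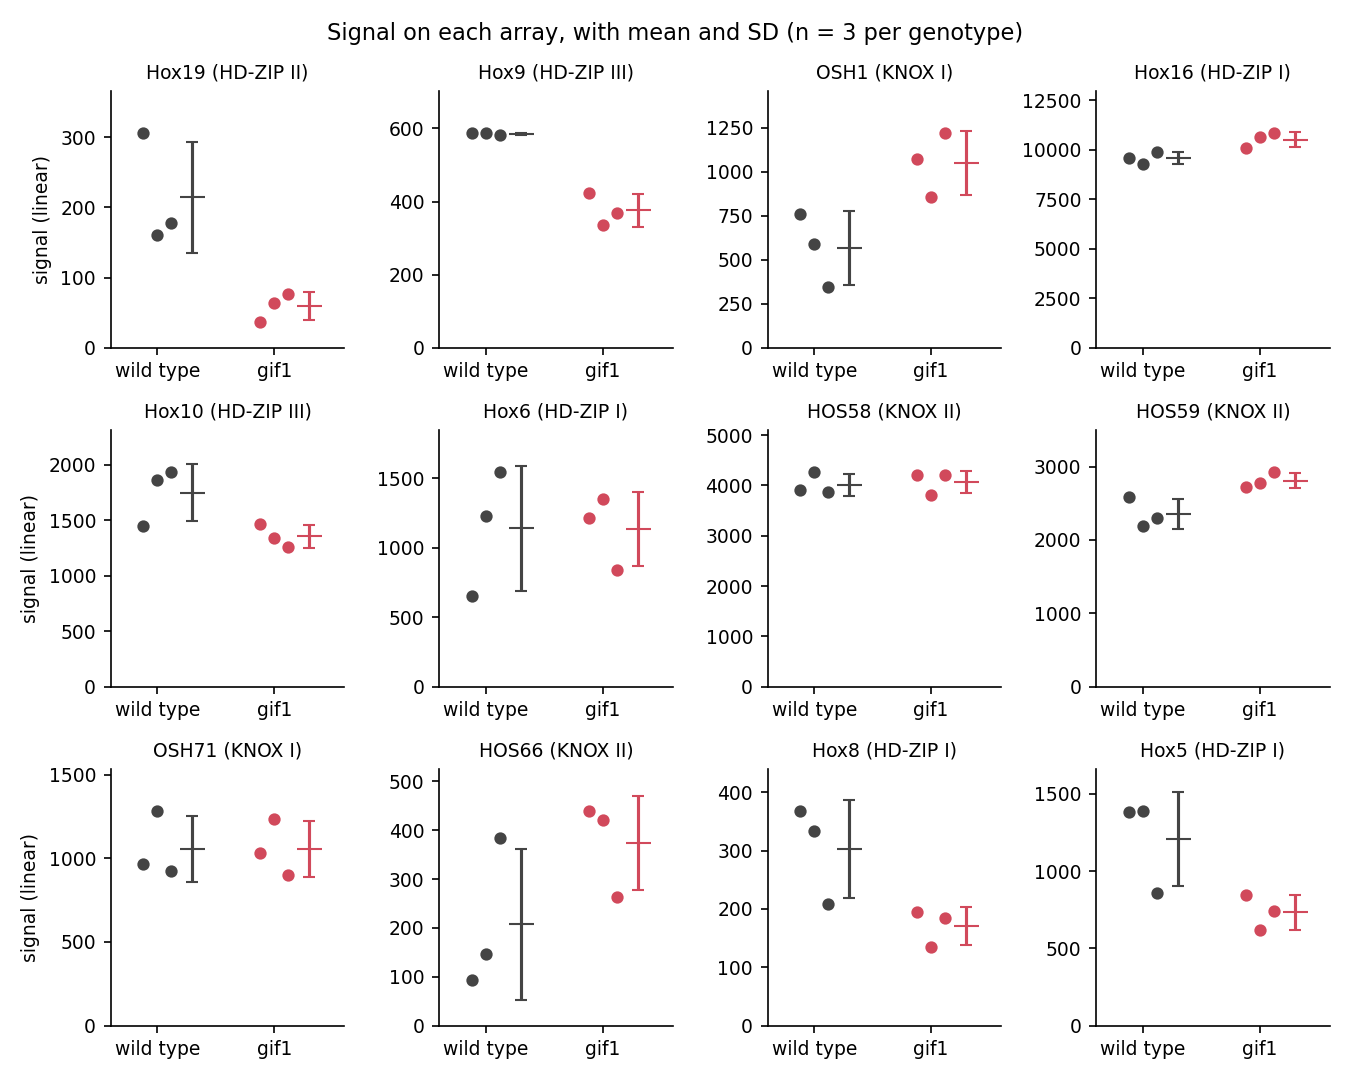
Signal on each array (vertical axis, linear scale from 0, set separately for each gene) for 12 homeobox genes in wild type and gif1, with the mean and SD of 3 arrays beside the points. OSH1 is higher on all gif1 arrays, Hox19, Hox9, Hox5 and Hox8 are lower on all of them, and OSH71, HOS58 and Hox6 overlap.

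Of the HD-ZIP genes, those of class III pattern the vasculature and the upper and lower sides of organs, and in plants they are cleaved under the guidance of microRNAs. Hox9 gave 586.6, 586.6 and 581.1 in wild type, against 422.7, 334.4 and 369.8 in gif1. All mutant arrays were lower, and the wild-type arrays were nearly identical, the highest being 1.01 times the lowest. The mean fell from 585 ± 3.18 to 376 ± 44.4 (SD, n = 3 per genotype), a log2 difference of -0.62 ± 0.18 (SE, 95% interval -1.01 to -0.23, adjusted p = 0.0445). The call was lost without each array in turn (adjusted p 0.0618 to 0.145), with no filter (0.0816), after quantile normalization (0.0537) and without the intensity trend (0.073). After median centring the difference was -0.28 (adjusted p = 0.365), and after scaling on the hybridization controls -0.11 (adjusted p = 0.754).

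Hox10 gave 1451.5, 1861.3 and 1930.7 in wild type, against 1466.0, 1341.4 and 1258.1 in gif1. Wild-type replicate 1 lay just under the highest mutant array, and the other wild-type arrays were above all of them. The difference of -0.35 ± 0.15 (SE, adjusted p = 0.145) passed without wild-type replicate 1 (-0.48, adjusted p = 0.0405) and was -0.02 after median centring and 0.17 after scaling on the hybridization controls. Hox33, whose product is linked to leaf senescence in rice, gave 402.4, 349.9 and 584.3 against 351.7, 271.6 and 477.7. Its genotypes overlapped, at -0.27 (95% interval -0.83 to 0.29). Hox32, a leaf rolling gene, ranged from 87.0 to 153.1 in wild type and from 109.2 to 143.8 in gif1. Its mutant range lay inside the wild-type range. Hox29 was too dim to be tested, with 32.5, 12.3 and 31.8 against 23.4, 70.3 and 72.3.

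In HD-ZIP class II, Hox19 gave 305.5, 160.4 and 177.4 in wild type, against 37.2, 64.3 and 77.0 in gif1. Every mutant array was below every wild-type array, and wild-type replicate 1 was the highest by far. The mean fell from 214 ± 79.3 to 59.5 ± 20.3 (SD, n = 3 per genotype), and the log2 difference of -1.57 ± 0.41 (SE, 95% interval -2.47 to -0.68, adjusted p = 0.0295) was the most negative of the 29 homeobox genes tested. Hox19 reached the minimum mean signal for testing through its wild-type arrays, since its gif1 mean lay below that minimum, so the size of its difference rests on dim mutant signals. The probe set is of a type (_x_at) that can also bind related transcripts.

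The direction of Hox19 held under each of the 15 alternatives, while the call was kept in 5. Without single arrays it was kept only without wild-type replicate 2 (adjusted p = 0.0489). Without wild-type replicates 1 and 3 the adjusted p was 0.0885 and 0.0534, and without gif1 replicates 1, 2 and 3 it was 0.0914, 0.0662 and 0.0569. It was 0.0818 with no filter, 0.0571 after quantile normalization, 0.0548 without the intensity trend and 0.0537 after scaling on the hybridization controls, where the difference was -1.13.

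The other 4 class II genes tested had differences from -0.32 to 0.42 with overlapping genotypes. Hox1 and Hox28 take part in the gravity response that sets tiller angle. Hox1 gave 271.5, 238.2 and 118.8 in wild type, against 337.9, 278.1 and 211.3 in gif1, with a difference of 0.42 (95% interval -0.29 to 1.12). Wild-type replicate 3 was below all mutant arrays, and the other wild-type arrays lay inside the mutant range. Hox15 was at 0.28 (adjusted p = 0.298), Hox2 at 0.24 (adjusted p = 0.505) and Hox7 at -0.32 (adjusted p = 0.542). Hox15 passed after median centring (0.62, adjusted p = 0.0287) and control scaling (0.80, adjusted p = 0.00569), and control scaling also brought Hox2 (0.75, adjusted p = 0.0239) and Hox1 (0.91, adjusted p = 0.0458) past the threshold. Hox28, next to Hox2 on chromosome 6, was too dim to be tested and ranged from 9.3 to 66.3 in wild type and from 1.9 to 82.1 in gif1. Hox11, also too dim, ranged from 8.4 to 88.6 and from 53.6 to 75.1. Neither showed separated genotypes.

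Hox17 is a further class II gene and was singled out after its values were seen. Its signals were too low to be tested, at 52.9, 45.5 and 62.7 in wild type, against 5.4, 23.6 and 10.6 in gif1. The mutant arrays were all lower. Fitted without the filter, the difference was -1.24 (95% interval -2.40 to -0.09, limma adjusted p = 0.251). Like that of Hox19, its probe set is of the type (_x_at) that can also bind related transcripts. Those standing for Hox7, Hox11, Hox20 and Hox21 are of this type too.

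No HD-ZIP class I gene passed (limma), beside 13.6% of all genes tested. An unadjusted p under 0.05 was seen for 4 of the 12, beside 4651 of all 15423 genes tested. These 4 were Hox5, Hox8, Hox12 and Hox14. Hox5 gave 1386.1, 1387.3 and 858.8 in wild type, against 845.0, 617.3 and 742.8 in gif1. The mutant arrays were all lower, with wild-type replicate 3 only just above the highest of them. The difference of -0.68 ± 0.21 (SE, 95% interval -1.14 to -0.23) had an adjusted p of 0.0526. It passed without wild-type replicate 3 (-0.91, adjusted p = 0.0103), after quantile normalization (-0.72, adjusted p = 0.0481), with an offset 4 times as large (-0.65, adjusted p = 0.0482) and with array weights (-0.71, adjusted p = 0.033). It did not pass after median centring (-0.35, adjusted p = 0.301) or control scaling (-0.16, adjusted p = 0.649), nor under the other alternatives run.

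Hox8 gave 367.2, 333.5 and 207.8 in wild type, against 194.1, 134.0 and 184.0 in gif1. Again the mutant arrays were all lower and wild-type replicate 3 was the nearest to them (-0.74 ± 0.29, SE, adjusted p = 0.115), and the difference was -0.41 after median centring and -0.25 after control scaling. Hox14, a gene of panicle development, gave 867.1, 1101.3 and 546.3 in wild type, against 567.9, 594.8 and 485.3 in gif1. Wild-type replicate 3 fell inside the mutant range, and the difference of -0.54 (adjusted p = 0.154) was -0.82 without it (adjusted p = 0.025), -0.21 after median centring and -0.03 after control scaling. Wild-type replicate 3 was thus the lowest wild-type array for OSH1, Hox5, Hox8 and Hox14, and the highest for HOS66.

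Hox12, which acts on panicle exsertion through a gene that inactivates gibberellin, gave 344.0, 381.0 and 269.0 in wild type, against 496.2, 512.8 and 408.8 in gif1. All mutant arrays were higher. The difference of 0.50 ± 0.21 (SE, adjusted p = 0.144) passed after median centring (0.83, adjusted p = 0.0216) and after scaling on the hybridization controls (1.00, adjusted p = 0.00507).

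Hox16 gave 9594.2, 9287.9 and 9864.4 in wild type, against 10079.0, 10633.2 and 10825.2 in gif1. The mutant arrays were all higher by a small step, from 9582 ± 288 to 10512 ± 387.5 (SD, n = 3 each), and the difference of 0.13 ± 0.10 (SE) did not pass (adjusted p = 0.401). It passed after median centring (0.47, adjusted p = 0.0169) and after scaling on the hybridization controls (0.66, adjusted p = 0.00247).

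Among the class I genes linked to drought and abscisic acid responses, Hox6 gave 653.9, 1225.0 and 1542.5 in wild type, against 1216.0, 1348.7 and 837.4 in gif1. Both genotypes spread widely and overlapped (0.05 ± 0.28, SE, 95% interval -0.56 to 0.66). Hox22 ranged from 306.2 to 554.8 in wild type and from 292.4 to 555.9 in gif1, with a difference of 0.005 (95% interval -0.61 to 0.62). Hox24 ranged from 361.0 to 521.4 and from 291.4 to 406.1, at -0.25 (95% interval -0.73 to 0.23). The remaining class I genes Hox4, Hox13, Hox20 and Hox21 also overlapped between genotypes, with differences of 0.04, 0.01, -0.05 and 0.26 and adjusted p of 0.918, 0.987, 0.907 and 0.706.

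Set side by side, 1 of 8 tested KNOX genes was called and 2 of 21 tested HD-ZIP genes of classes I to III. These are 12.5% and 9.52%, both near the 13.6% of all genes. The log2 differences of the 8 KNOX genes ran from 0.005 to 0.98 with a median of 0.22, and those of the 21 HD-ZIP genes from -1.57 to 0.50 with a median of 0.005, beside a median of 0.03 over all tested genes. All 8 KNOX genes were above 0, but 6 were after quantile normalization, 7 with array weights and 5 without wild-type replicate 3, and 6 of 8 were above the median of all genes. Of the HD-ZIP genes 11 of 21 were above 0, and 53.0% of all tested genes were. Signals without overlap were all higher for KNOX (3 of 8, 37.5%), and for HD-ZIP 2 were higher and 4 lower (6 of 21, 28.6%), against 35.5% of all genes. These are descriptions, and no test of a difference between the families was run. By class the medians were 0.01 for HD-ZIP I, 0.24 for HD-ZIP II, -0.31 for HD-ZIP III, 0.30 for KNOX I and 0.21 for KNOX II.

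The scaling of the arrays moved both families together with all genes. After median centring the median over all genes was 0.37, and those of HD-ZIP and KNOX were 0.34 and 0.56. After scaling on the hybridization controls they were 0.54, 0.52 and 0.73, and after quantile normalization 0.05, -0.02 and 0.33. The KNOX median thus lay 0.20 above that of all genes as deposited and after median centring, 0.19 above it after control scaling and 0.28 above it after quantile normalization, while the HD-ZIP median lay 0.02 to 0.07 below it. The balance of higher and lower calls depended on scaling. Of the 29 homeobox genes tested, median centring gave 6 higher and 1 lower, and control scaling gave 10 higher and 0 lower (limma). Of all 15423 genes tested, median centring gave 4156 higher and 280 lower, and control scaling gave 6918 higher and 194 lower. Hox7, Hox20, Hox24 and Hox33 were below 0 as deposited and above 0 under both of these scalings, and none of the 4 passed under either. Over the whole array these scalings gave 5817 probe sets higher and 613 lower, and 9690 higher and 430 lower, against 1709 and 1716 as deposited.

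**Figure D3:**
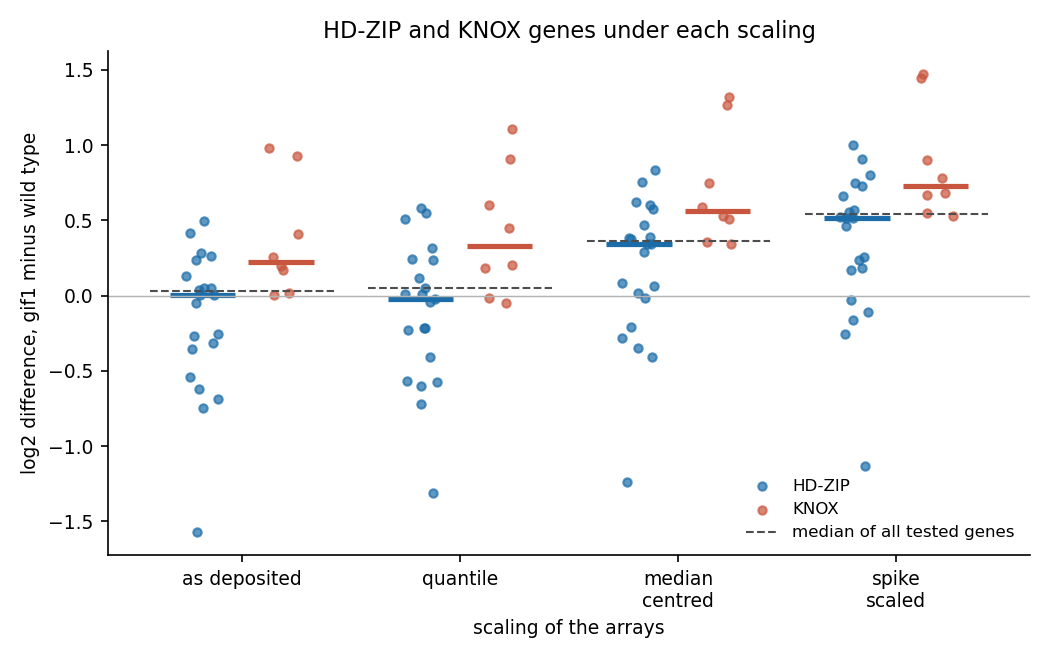
Log2 difference of each tested HD-ZIP (blue) and KNOX (red) gene under 4 scalings of the arrays (horizontal axis), with a bar at each family's median and a dashed line at the median of all tested genes. The KNOX median is above the dashed line in each scaling, at 0.22 against 0.03 as deposited, and all KNOX points are above 0 except 2 after quantile normalization.

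The 34 genes had 44 probe sets, with more than 1 for 8 of the genes. Apart from the brightest probe set of each gene, none passed as deposited. The second probe set of OSH1, of the type that can bind related transcripts, gave 404.4, 447.9 and 540.3 in wild type, against 605.5, 690.2 and 669.0 in gif1. It too was higher on all mutant arrays, at 0.49 ± 0.18 (SE, adjusted p = 0.0993), and the mean of both OSH1 probe sets gave 0.71 (adjusted p = 0.0226). The second probe set passed after median centring (0.825, adjusted p = 0.0118) and after control scaling (1.002, adjusted p = 0.00195). Wild-type replicate 3 was the lowest wild-type array on the first probe set and the highest on the second. The other probe sets of Hox19 were too dim to be tested, 1 lower on all mutant arrays (-0.96) and 1 overlapping (0.23). Hox16 had a second tested probe set at 0.34 ± 0.15 (SE) and a dim one at -0.79, so its probe sets disagree in sign. The second probe sets of Hox20, Hox10, Hox7 and OSH43 were at -0.37, -0.22, -0.08 and 0.46, each with the sign of the first, and a dim second probe set of Hox5 was at -1.02.

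**Figure D4:**
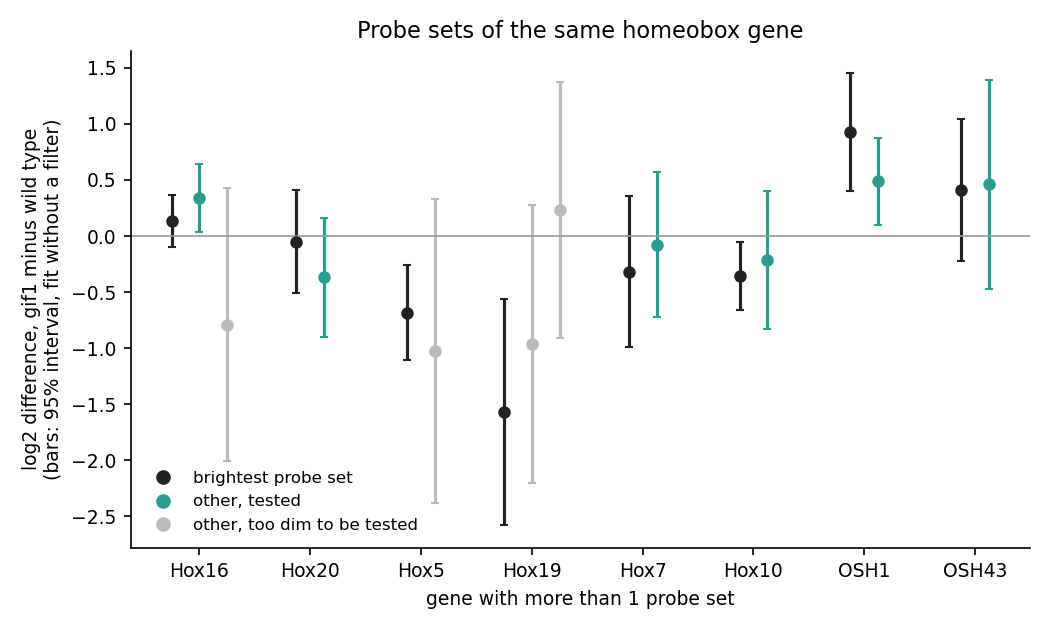
Log2 difference with its 95% interval, from the fit without a filter on dim probe sets, for every probe set of the 8 homeobox genes with more than 1 (horizontal axis). Both OSH1 probe sets are above 0, at 0.93 and 0.49. Those of Hox16 and Hox19 lie on both sides of 0, in each case through a probe set too dim to be tested.

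**Figure D5:**
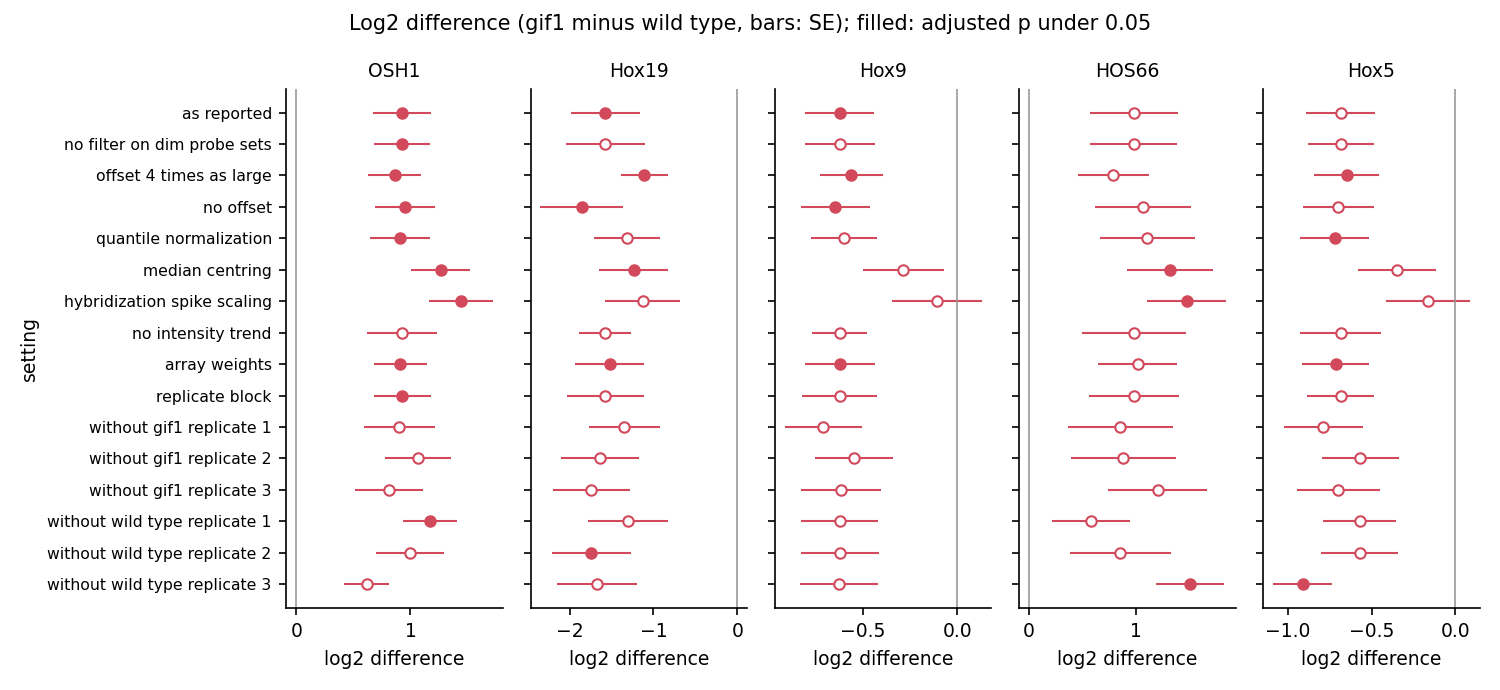
Log2 difference with its SE (horizontal axis) of OSH1, Hox19, Hox9, HOS66 and Hox5 under each setting (vertical axis), filled where the adjusted p is under 0.05. All points of a gene keep their side of 0, and the filled points change from setting to setting, as for Hox9, which is filled in the reported fit and in 3 alternatives.

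Genes around these factors were taken from lists matched by symbol. Of 12 other homeobox genes tested (all with WOX, ROC or ZHD names), 1 passed, or 8.33%, beside 13.6% of all genes tested. Their median difference was -0.23, beside 0.03 over all genes tested. They did not meet the name rule, and the ROC genes were not counted with the HD-ZIP genes here. The gene that passed was OsZHD1, a zinc-finger homeodomain gene known for leaf rolling. It gave 347.0, 365.3 and 513.5 in wild type, against 229.8, 180.8 and 182.4 in gif1. It fell on all mutant arrays, by 0.97 on the log2 scale (SE 0.24, adjusted p = 0.024). The call was lost without gif1 replicate 2 (0.0791), without gif1 replicate 3 (0.0833), without wild-type replicate 3 (0.0838), with no filter (0.0509), without the intensity trend (0.0604), after median centring (0.095) and after control scaling (0.195). These scalings called 2 and 3 other genes of the list, all higher, beside 4156 and 6918 of all 15423 genes called higher.

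Class I KNOX proteins restrain gibberellin synthesis through gibberellin 20-oxidase genes, and 2 gibberellin oxidases were matched. GA20OX3 gave 1574.3, 1782.0 and 1677.8 in wild type, against 1239.3, 1281.2 and 1099.9 in gif1. It fell on all mutant arrays, by 0.47 on the log2 scale (SE 0.14, adjusted p = 0.043). GA20OX2 was at -0.01 (adjusted p = 0.986). Leaving out single arrays kept the call of GA20OX3 only without wild-type replicate 1 (0.0347). The adjusted p was 0.112 and 0.0821 without wild-type replicates 2 and 3, and 0.107, 0.0878 and 0.162 without gif1 replicates 1, 2 and 3. The difference was -0.13 (adjusted p = 0.63) after median centring and 0.05 (adjusted p = 0.855) after control scaling.

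Of 11 tested genes of cytokinin synthesis and breakdown none passed (limma), 2 had an unadjusted p under 0.05 and the median was 0.20. Of all 15423 genes tested, 13.6% passed, 4651 had an unadjusted p under 0.05 and the median was 0.03. LOGL5, of the family that activates cytokinin, gave 266.2, 428.6 and 423.1 in wild type, against 542.9, 434.5 and 673.6 in gif1, and CKX4, a cytokinin-degrading oxidase, gave 65.8, 32.5 and 81.0 and 120.9, 115.4 and 168.4. Both were higher on all mutant arrays, at 0.55 (adjusted p = 0.157) and 1.02 (adjusted p = 0.166). CKX4 reached the minimum mean signal for testing through its gif1 arrays, since its wild-type mean of 59.8 lay below that minimum. The size of its difference thus rests on dim wild-type signals. LOGL5 passed after median centring (0.89, adjusted p = 0.0271) and control scaling (1.06, adjusted p = 0.00523), and so did CKX4 (1.35, adjusted p = 0.0476, and 1.45, adjusted p = 0.0267). Under these scalings 3 and 4 of the 11 genes were called, all higher, beside 4156 and 6918 of all 15423 genes called higher.

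Of 4 corepressors and partners none passed (limma), 1 had an unadjusted p under 0.05 and the median was 0.16. Over all 15423 genes tested these were 13.6%, 4651 genes and 0.03. ASP1, a TOPLESS-type corepressor, gave 2372.8, 289.0 and 264.5 in wild type, against 4460.6, 2024.7 and 1621.6 in gif1. Wild-type replicate 1 stood far above the other wild-type arrays and inside the mutant range, and the difference was 2.06 ± 0.66 (SE, adjusted p = 0.0641). It passed after median centring (2.40, adjusted p = 0.0089) and control scaling (2.58, adjusted p = 0.00197). TPR3, a corepressor of the same type, gave 2970.0, 3660.1 and 3294.5 in wild type, against 3850.9, 4137.8 and 3544.5 in gif1. The genotypes overlapped at 1 array each, and the difference of 0.22 (adjusted p = 0.274) passed after median centring (0.55, adjusted p = 0.0277) and control scaling (0.75, adjusted p = 0.00264). Under these scalings 2 and 3 of the 4 genes were called, all higher, beside 4156 and 6918 of all 15423 genes called higher.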

How the data were processed

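The deposited table holds linear intensity values per probe set, which the authors made with version 1.4 of GCOS, per the submitters' processing notes. Settings of GCOS and the array's build were not given in the sources used here, so no coordinates are printed. The mean after trimming 2% at each end was 500 on every array. Of 57381 probe sets, 187 controls were left out. The platform annotation gave 22436 probe sets 1 gene and 95 several, and did not list 34850. All 22436 identifiers were found in the RefSeq gene table (ASM3414082v1).

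The analysis used log2(signal + 17.7), with an offset at the 25th percentile of all values. Probe sets with a mean of at least 74.1 were tested (28597). The test was limma 3.58.1 (R 4.3.3; lmFit, eBayes with intensity trend, genotype as the only term, Benjamini-Hochberg adjustment, 0.05), checked on simulated data. The brightest probe set stood for a gene. Control and RNA measures were compared by exact permutation tests. The number of arrays, 6, limits the precision. Alternatives changed the offset, filter, scaling, trend, array weights, replicate block and probe set rule, or left out 1 array. Python 3.11.15 with matplotlib 3.10.9 drew the figures.

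The homeobox genes and lists were chosen with earlier results of these data known. Values on every array are given for GIF1, the genes called, Hox19, OSH1, the 3 HD-ZIP and 3 KNOX genes with the highest signals, the 3 largest differences not called, and, in the lists of other homeobox, gibberellin, cytokinin and corepressor genes, the members called (or the 2 with the smallest p where none was). Tissue markers are given as sums and counts. Further values per array were chosen after they were seen.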

Additional observations from a re-analysis of the deposited data

Results flagged for a closer look

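OSH3, whose probe set was left out of the tested table for its low signal, averaged 97.7 on the gif1 arrays and 30.4 on the wild-type arrays. The gif1 mean rests on replicate 3 at 165.6, and gif1 replicates 1 and 2 gave 62.5 and 65.1. All gif1 arrays were above all wild-type arrays, and 35.5% of all genes tested had no overlap in either direction. It is listed here because it is a signal outside the tested data that exceeds the level of the control genotype. Its difference without the filter was 1.16 on the log2 scale and did not pass (limma adjusted p = 0.354).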

How the results depend on the processing

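With 3 homeobox genes called as reported (2 HD-ZIP, 1 KNOX), limma called 1 (0 HD-ZIP, of which 8 had an unadjusted p under 0.05) with no filter, 7 (4 and 3) after median centring, 10 (5 and 5) after scaling on the hybridization controls, and 0 without the intensity trend, where 7 (5 and 2) had an unadjusted p under 0.05. Quantile normalization called 1 HD-ZIP gene, Hox5, which had not passed as reported, and neither Hox19 nor Hox9. Leaving out single arrays gave 0 to 3 (0 to 2 HD-ZIP, 0 to 1 KNOX), with 4 to 7 at an unadjusted p under 0.05. Over the whole array, 3425 probe sets became 6430, 10120 and 784 after median centring, after control scaling and without the trend, and 1436 to 4294 without single arrays. The HD-ZIP median of 0.005 was 0.34 and 0.52 under those scalings and -0.24 to -0.015 without single arrays, and the KNOX median of 0.22 was 0.56 and 0.73. Signs turned for Hox16 with all its probe sets averaged, the dim one included (-0.10). They also turned for Hox10 (0.17) and GA20OX3 (0.053) after control scaling, for HOS58 (-0.018) and OSH71 (-0.05) after quantile normalization and for OSH71 with array weights (-0.037). Without single arrays Hox6 ran from -0.30 to 0.31, HOS58 from -0.006 to 0.067 and OSH71 from -0.11 to 0.15. The cause was not tested. Of 229 values for the 15 named genes, 157 kept their direction and their side of the threshold, and GIF1 passed in all 15 alternatives. Dim signals limit 5 genes, which were not tested.

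Deviations from the genotype means were not shared between arrays of the same replicate number (correlations of -0.03, 0.02 and -0.05). These values cannot tell whether samples were grown or handled in pairs. With the replicate number as a block, 1 homeobox gene was called, OSH1 (adjusted p = 0.0439), and 0 HD-ZIP genes (limma, 6 at an unadjusted p under 0.05), with 2830 probe sets over the array.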
